A study of Sus scrofa with 8 samples.

Results

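Coagulation and fibrinolysis genes were followed in the jejunal wall of piglets. The set held 6 genes, F12, F10, F3, F8, PLAT and PLAU, out of the 3216 gene symbols that the array's RefSeq probes could be given. A non-control probe was taken as a member when its RefSeq transcript mapped to one of these symbols, and each gene was represented by its brightest probe, the one with the highest mean log2 processed signal over all arrays. All 6 genes had a probe, 13 probes in all, and all 13 were well above background on all 8 arrays. The probes were thus chosen by their brightness over all arrays, and the genes themselves with earlier results of these data known. The weaned group was 4 piglets moved at 21 days of age from the sow to a nursery pen with a basal diet, and sampled at 25 days. The suckling group was 4 piglets of the same age that stayed with the sow. All were Duroc × Landrace crosses from 4 litters, with 1 piglet of each litter in each group. Littermates therefore stood in both groups, but which piglets they were is not known here, and the fit takes no account of litter. Each array held the RNA of 1 piglet, from a piece of the middle jejunum about 2 cm long. Such a piece holds epithelium, vessels, immune cells and muscle together, so fewer cells of a type and less RNA per cell cannot be told apart.

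Blood clots when proteases of the plasma activate one another in sequence and the last of them turns fibrinogen into fibrin. F3, tissue factor, starts the sequence on injured tissue, F12 starts it on charged surfaces, F8 is a cofactor of the step that activates F10, and F10 makes thrombin. PLAT and PLAU, the tissue-type and urokinase-type plasminogen activators, turn plasminogen into plasmin, which cuts fibrin. The liver is the main source of F12 and F10 in plasma, while vessel walls make F8 and PLAT, and epithelial, stromal and immune cells can make F3 and PLAU.

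Levels are log2 processed intensities minus the 75th percentile of the same array, so 0 marks that percentile. The percentile was an intensity of 317 to 390 on the weaned arrays and of 245 to 395 on the suckling arrays, and the share of probes well above background was 68.0% to 71.0% on weaned and 67.6% to 71.0% on suckling arrays. Suckling replicate 1 stood apart from its group: across probes, which are not independent, it correlated at 0.953 to 0.967 with the other suckling arrays, which correlated at 0.978 to 0.983 among themselves. It correlated best with weaned replicate 1, at 0.978. All weaned arrays lay on 1 slide and all suckling arrays on another, each with its own scan, so for every value below an effect of the slide or scan and one of weaning cannot be told apart.

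F12 and F10, the proteases of the contact step and of thrombin formation, had lower means in weaned piglets, 10.5-fold and 5.69-fold lower, and 3 of the 4 suckling piglets carried the high values. F3, F8, PLAT and PLAU had differences between 0.47 lower and 0.27 higher on the log2 scale. With all 8 arrays, none of the 6 genes passed the threshold of an adjusted p under 0.05 (limma, adjusted over 30552 tested probes), which 0.177% of tested probes passed, 0.00327% with a lower level in weaned piglets. At an unadjusted p under 0.05 there were 2 of 6, F12 and F10, both lower, against 12.3% of tested probes in either direction and 4.58% lower. The mean was lower in weaned piglets for 5 of the 6, against 45.1% of tested probes. F8, with a difference of -0.0018, is counted among the 5. The median difference was -0.40 over the 6 and 0.04 over all tested probes. In none of the 6 did the groups fail to overlap, which they did in 7.76% of tested probes. The genes were chosen with earlier results of these data known, so nothing is read from these counts.

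**Figure D1:**
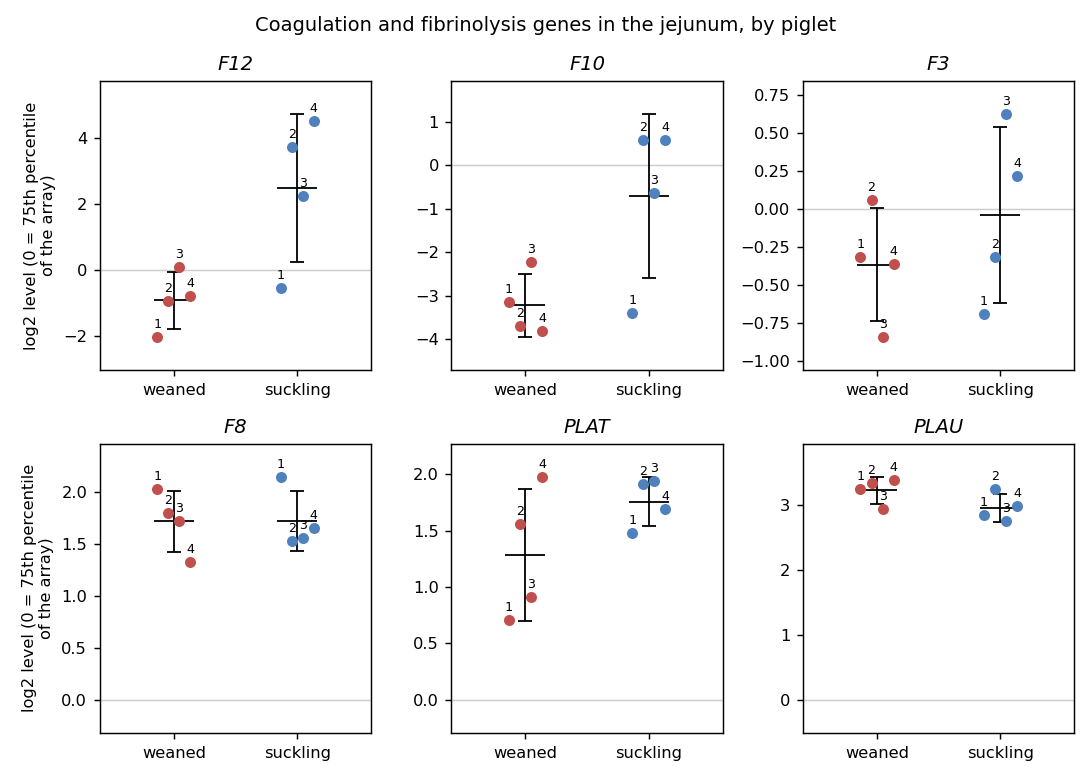
Level of each gene in each piglet, as log2 processed intensity minus the array's 75th percentile, with the replicate number above each point; bars are the mean ± SD of 4 piglets, and each panel has its own vertical scale. For F12 and F10, suckling replicate 1 lies among the weaned piglets and the other 3 suckling piglets lie above all weaned piglets.

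F12 encodes coagulation factor XII, the protease that starts the contact pathway. Its level was -2.03, -0.94, 0.08 and -0.80 in weaned replicates 1 to 4, against -0.57, 3.70, 2.22 and 4.51 in suckling replicates 1 to 4. Suckling replicates 2, 3 and 4 lay above every weaned piglet, and suckling replicate 1 lay within the weaned range. As processed intensities these were 77.3 to 413 in weaned piglets and 165 to 7790 in suckling piglets. The means were -0.92 ± 0.87 in weaned and 2.47 ± 2.24 in suckling piglets (SD, n = 4 each), a difference of -3.39 (SE 0.99, limma adjusted p = 0.244). Its 95% interval, not adjusted for the number of probes, ran from -5.62 to -1.16, or from 2.24-fold to 49.2-fold lower. No tested probe had a more negative difference than F12 in this fit, and its rank from the most negative was 1 to 4 under the other settings tried. Its spread was wide as well: the suckling SD exceeded that of 99.5% of tested probes and the weaned SD that of 96.9%.

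F10 encodes coagulation factor X, the vitamin K-dependent protease that makes thrombin. It had levels of -3.15, -3.69, -2.22 and -3.81 in weaned replicates 1 to 4, against -3.39, 0.59, -0.63 and 0.59 in suckling replicates 1 to 4. The same 3 suckling piglets were high and the same one was low as for F12. Its intensities were 27.4 to 83.5 in weaned piglets and 23.3 to 590.0 in suckling piglets, well above background on every array. The means were -3.22 ± 0.72 in weaned and -0.71 ± 1.88 in suckling piglets (SD, n = 4 each), a difference of -2.51 (SE 0.83, 95% interval -4.38 to -0.63, limma adjusted p = 0.293). It was 9th from the most negative of all tested probes, and 4th to 59th under the other settings tried, 59th with normexp. Its suckling SD exceeded that of 99.2% of them. With normexp background correction, which compresses dim values, the differences were -1.17 for F10 and -2.71 for F12.

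Without suckling replicate 1, F12 and F10 passed the threshold, and they had been chosen with that result known, so nothing is read from the call. In these 7 arrays 2 of the 6 genes passed, both lower, against 1.82% of tested probes in either direction and 0.590% lower. The suckling means were then 3.48 ± 1.16 for F12 and 0.18 ± 0.70 for F10 (SD, n = 3). F12 was 21.2-fold lower in weaned piglets, with a 95% interval from 8.03-fold to 55.8-fold (log2 difference -4.40, SE 0.61, limma adjusted p = 0.0279). F10 was 10.6-fold lower, with an interval from 5.20-fold to 21.5-fold (log2 difference -3.40, SE 0.44, limma adjusted p = 0.0255). Both then had every weaned piglet below every remaining suckling piglet, as 8.34% of tested probes did, and 20.5% failed to overlap in either direction. Leaving out the only suckling piglet within the weaned range for both genes fixes this separation, so nothing is read from it. Suckling replicate 1 lay 4.05 below the mean of the other suckling piglets for F12 (log2), and its difference from that mean was -3.58 for F10. Leaving out any other single piglet gave differences from -3.73 to -2.71 for F12 and from -2.84 to -2.07 for F10, with neither past the threshold.

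**Figure D2:**
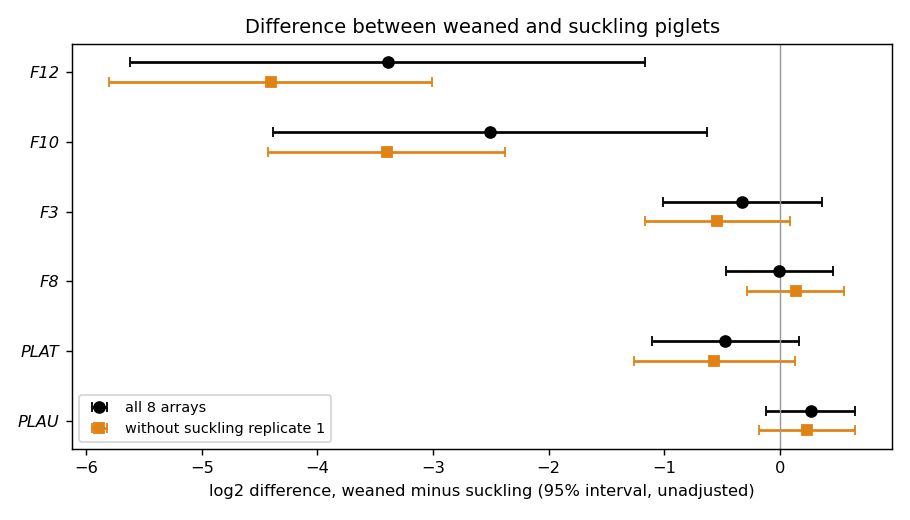
Log2 difference of each gene, weaned minus suckling, with its unadjusted 95% interval, over all 8 arrays (circles) and without suckling replicate 1 (squares). The F12 and F10 intervals lie below 0 in both runs, and the intervals of F3, F8, PLAT and PLAU include 0 in both.

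F3 encodes tissue factor, the membrane receptor of factor VII that starts clotting outside the vessel. It had levels of -0.32, 0.06, -0.84 and -0.36 in weaned replicates 1 to 4, against -0.69, -0.32, 0.62 and 0.22 in suckling replicates 1 to 4. The groups overlapped, with suckling replicates 3 and 4 above all weaned piglets and suckling replicate 1 the second lowest of the 8. The means were -0.37 ± 0.37 in weaned and -0.04 ± 0.58 in suckling piglets (SD, n = 4 each). The difference was -0.32 (SE 0.30, 95% interval -1.01 to 0.36, limma adjusted p = 0.705), and -0.54 without suckling replicate 1 and -0.10 without suckling replicate 3. A second, dimmer F3 probe gave a difference of -0.33 (SE 0.24).

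F8 encodes factor VIII, the cofactor that speeds the activation of factor X. It had levels of 2.03, 1.80, 1.71 and 1.32 in weaned replicates 1 to 4, against 2.14, 1.53, 1.55 and 1.65 in suckling replicates 1 to 4. Suckling replicate 1, low for F12, F10 and F3, was the highest of the 8 here, and weaned replicate 4 the lowest. The processed intensity of F8 in suckling replicate 1 was 1080, within the 962 to 1350 of the 8 arrays. That array had the lowest 75th percentile, 245, so its top rank depends on the scaling. The means were 1.72 ± 0.29 in weaned and 1.72 ± 0.29 in suckling piglets (SD, n = 4 each). The difference was -0.0018 (SE 0.21, limma adjusted p = 0.999), and its interval of -0.47 to 0.46 leaves room for a level 0.724 to 1.38 times that of suckling piglets.

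PLAT encodes the tissue-type plasminogen activator, which vessel walls release. It had levels of 0.71, 1.55, 0.91 and 1.98 in weaned replicates 1 to 4, against 1.48, 1.92, 1.94 and 1.69 in suckling replicates 1 to 4. Weaned replicates 1 and 3 were the low piglets, below all suckling piglets, and weaned replicate 4 was the highest of the 8. The means were 1.29 ± 0.58 in weaned and 1.76 ± 0.22 in suckling piglets (SD, n = 4 each), a difference of -0.47 (SE 0.28, 95% interval -1.11 to 0.17, limma adjusted p = 0.538). The weaned SD of PLAT exceeded that of 90.8% of tested probes, and its suckling SD that of 25.5%. Its 6 probes all had lower means in weaned piglets, with differences of -0.47 to -0.22, none past the threshold. Across the 8 arrays, 4 of the other 5 probes followed the brightest at r of 0.950 to 0.984, and the dimmest at 0.390, with intensities of 20.9 to 40.1.

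PLAU encodes urokinase, the plasminogen activator that acts at cell surfaces through its receptor. It had levels of 3.25, 3.34, 2.93 and 3.39 in weaned replicates 1 to 4, against 2.85, 3.25, 2.75 and 2.99 in suckling replicates 1 to 4. The groups overlapped: weaned replicates 2 and 4 lay above all suckling piglets, weaned replicate 1 was level with the highest of them, and weaned replicate 3 lay among them. The means were 3.23 ± 0.20 in weaned and 2.96 ± 0.22 in suckling piglets (SD, n = 4 each). The difference was 0.27 (SE 0.17, 95% interval -0.12 to 0.65, limma adjusted p = 0.559). PLAU was the one gene of the 6 with a higher mean in weaned piglets, and its second probe gave a difference of 0.32 (SE 0.19).

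**Figure D3:**
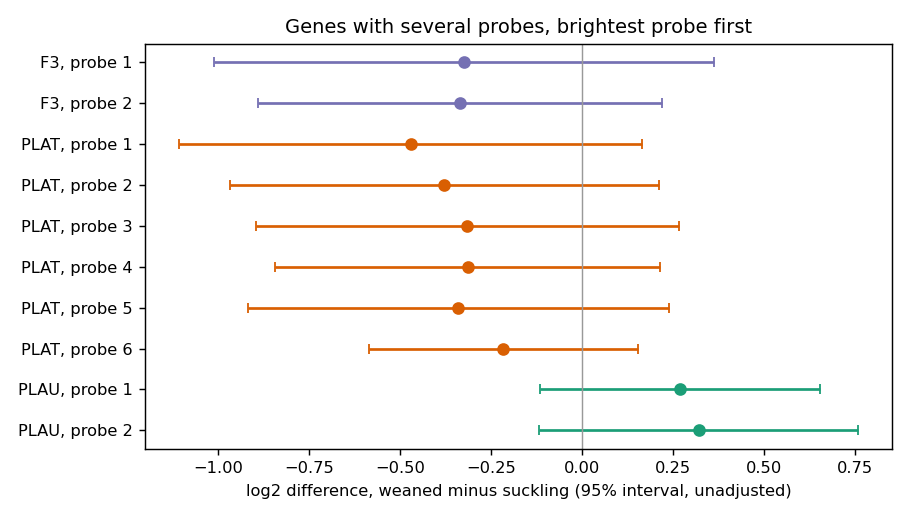
Log2 difference, weaned minus suckling, of every probe of F3, PLAT and PLAU with its unadjusted 95% interval, the brightest probe of each gene first. All F3 and PLAT probes lie below 0 and both PLAU probes above it, and every interval includes 0.

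Other genes of the pathway came from a list of 46, of which 20 were on the array under a RefSeq symbol and 16 passed the filter on dim probes. None of the 16 passed the threshold (limma), against 0.0711% of the 2813 tested genes, and 1 had an unadjusted p under 0.05, against 11.9%. The mean was higher in weaned piglets for 9 and lower for 7, against 42.5% of tested genes with a lower mean, with a median difference of 0.10, and of 0.06 over all tested genes. The 4 that failed the filter were F9 and KLKB1, which encode factor IX and plasma prekallikrein, FGG, a fibrinogen chain, and PLG, plasminogen. None of these 4 was well above background on any array.

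Among the 4 tested genes of coagulation factors and their processing, 3 had lower means in weaned piglets and none passed the threshold. VWF, which carries factor VIII in plasma and tethers platelets, averaged 2.01 ± 0.18 in weaned and 2.35 ± 0.39 in suckling piglets (SD, n = 4 each), and differed by -0.33 (SE 0.21, limma adjusted p = 0.562). F5, the cofactor of factor X, was dim and had a difference of -0.17 (SE 0.24). F2 encodes prothrombin, the substrate of factor X, and was 0.25 in weaned replicate 3 and -0.14 in suckling replicate 3. The other 6 piglets lay between -3.24 and -2.18 for F2, and its difference was 0.51 (SE 0.88). Of these 2 piglets with high F2, suckling replicate 3 was also among the 3 with high F12 and F10, and weaned replicate 3 was not.

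Inhibitors of coagulation and the protein C system had 6 tested genes, 3 with higher and 3 with lower means in weaned piglets and none past the threshold. SERPING1, which encodes the C1 inhibitor that also blocks activated factor XII, averaged 3.88 ± 0.19 in weaned and 3.64 ± 0.20 in suckling piglets (SD, n = 4 each), and differed by 0.23 (SE 0.16, limma adjusted p = 0.598). THBD encodes thrombomodulin, which turns thrombin towards protein C, and its difference was 0.35 (SE 0.28). TFPI, the inhibitor of tissue factor, had a difference of -0.18 (SE 0.23). F2R, the thrombin receptor and the one protease-activated receptor tested, differed by 0.53 (SE 0.67, limma adjusted p = 0.790).

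Of the 5 tested genes around plasminogen, 4 had higher means in weaned piglets and none passed the threshold. ANXA2, annexin A2, a cell surface protein that binds plasminogen and its tissue-type activator, had levels of 6.51, 6.73, 6.17 and 6.80 in weaned replicates 1 to 4, against 5.88, 6.02, 5.91 and 6.04 in suckling replicates 1 to 4. Every weaned piglet lay above every suckling piglet, the 1 case among the 16 genes, against 7.54% of tested genes. The difference was 0.59 (SE 0.17, limma adjusted p = 0.239), or 1.51-fold, and all 3 ANXA2 probes had higher means in weaned piglets. SERPINE2, an inhibitor of serine proteases, had a difference of 0.16 (SE 0.36).

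**Figure D4:**
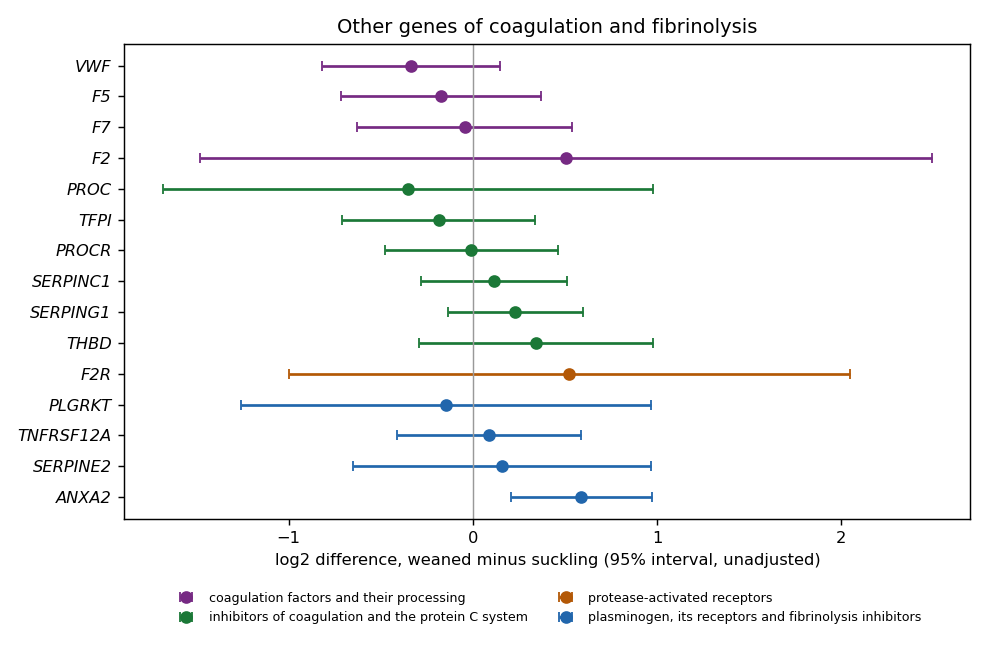
Log2 difference, weaned minus suckling, of 15 of the 16 other tested genes of coagulation and fibrinolysis with unadjusted 95% intervals, coloured by role. ANXA2, at 0.59, is the gene plotted whose interval does not include 0.

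Markers of the cell types that a piece of jejunum could hold were set beside F12 and F10. None of the tested markers of any list passed the threshold. The levels of the 12 tested markers of absorptive enterocytes, the nutrient-absorbing cells of the villus, summed on the linear scale in units of each array's 75th percentile, were 1169, 1564, 2472 and 1884 in weaned replicates 1 to 4, against 680, 3529, 3130 and 4597 in suckling replicates 1 to 4. The 3 highest sums were those of suckling replicates 2, 3 and 4, which also had the highest F12 and F10. Bright genes weigh most in such a sum, and none was left out to see its weight. Differences of the 12 genes ran from -2.48 for APOC3 (SE 1.21) to 0.30 for SLC15A1 (SE 0.70). A second measure was the median over the 12 genes of the log2 level minus the gene's mean over the 8 arrays. By it weaned replicate 3, at 0.34, lay just above suckling replicate 3, at 0.33, so the match depends on the measure. Suckling replicate 1 had the lowest sum of the 8, while its F12 and F10 lay within the weaned range. The median difference of this list was -0.20, with 9 lower and 3 higher, against 42.5% of tested genes with a lower mean. The median was -0.67 without suckling replicate 1, when all 12 had lower means in weaned piglets, and it reached 0.08 with another array left out. Leaving out the piglet with the lowest sum moves the list this way, so nothing is read from all 12 being lower. FABP1 and APOA4, a fatty acid-binding protein and an apolipoprotein and the brightest markers of the list, averaged 8.78 ± 0.21 and 8.16 ± 0.63 in weaned piglets, against 8.77 ± 0.58 and 8.72 ± 1.01 in suckling piglets. The part of the absorptive epithelium in the F12 and F10 values was not tested.

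**Figure D5:**
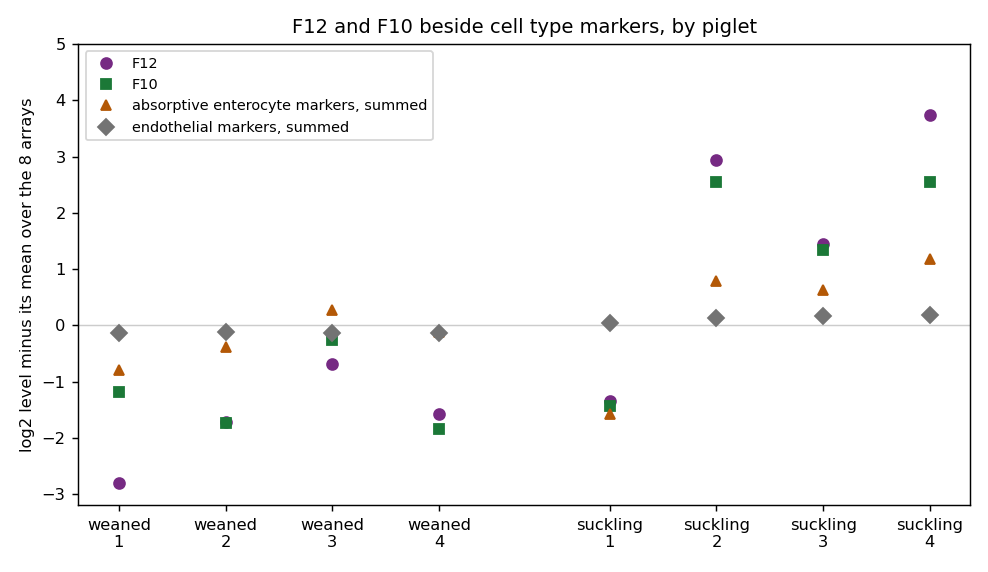
Log2 levels of F12 and F10 and log2 of the summed levels of the absorptive enterocyte and endothelial marker lists in each piglet, each minus its own mean over the 8 arrays. F12, F10 and the enterocyte sum are high in suckling replicates 2, 3 and 4 and low in suckling replicate 1, and the endothelial sum spans a narrow range.

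Hepatocyte markers were looked at because the liver is the usual source of F12 and F10. Of the 7 on the array, FGG and CYP2E1 were not well above background on any array, and the sum of the 5 tested was 2.52 to 5.81 in weaned and 2.10 to 6.75 in suckling piglets. Its brightest members were SERPINA1, a protease inhibitor, and TF, transferrin. SERPINA1 averaged 1.13 ± 0.75 in weaned and 0.10 ± 0.38 in suckling piglets, and TF averaged -0.65 ± 1.17 in weaned and 0.49 ± 1.90 in suckling piglets (SD, n = 4 each).

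Endothelial markers are given beside F8 and PLAT, which vessels make, and their sum over 8 tested genes was at most 15.2 in weaned and 17.0 to 18.8 in suckling piglets. The median difference of the 8 was -0.35, and -0.12 with the mean over all probes of each gene. Of the 8, 6 were lower and 2 higher, against 42.5% of tested genes with a lower mean. The groups did not overlap in 1 of the 8, against 7.54% of tested genes. VWF, described above, is one of the 8 and made up 23.4% to 31.1% of the sum in weaned and 20.8% to 36.3% in suckling piglets, and 1 of its 2 probes had a higher mean in weaned piglets. Without VWF the sum was 10.3 to 11.6 in weaned and 11.97 to 13.5 in suckling piglets. PECAM1, an adhesion molecule of vessel walls, averaged 2.30 ± 0.13 in weaned and 2.63 ± 0.17 in suckling piglets. Macrophage, monocyte and neutrophil markers had 7 of 8 means higher in weaned piglets, against 42.5% of tested genes with a lower mean. The groups did not overlap in 3 of these 8, with weaned piglets higher, against 7.54% of tested genes. The sum of these 8 was 259 to 363 in weaned and 51.5 to 190 in suckling piglets. LYZ, lysozyme, was the brightest of them, averaging 7.93 ± 0.26 in weaned and 6.15 ± 1.41 in suckling piglets. Without LYZ the sums overlapped, at 37.6 to 54.4 in weaned and 31.3 to 38.0 in suckling piglets. AIF1, a macrophage protein, averaged 4.12 ± 0.17 in weaned and 3.78 ± 0.25 in suckling piglets. The part of either cell type in the F8, PLAT and PLAU values was not tested.

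The other marker lists had wider or overlapping sums. The sum of 4 fibroblast and matrix genes, led by DCN and COL1A2, was 45.7 to 66.7 in weaned and 52.4 to 84.0 in suckling piglets. That of 5 smooth muscle genes, led by DES and CNN1, was 78.6 to 262 in weaned and 140 to 299 in suckling piglets. The 4 tested genes of proliferating crypt cells, led by BIRC5 and CDK1, summed to 19.6 to 37.9 in weaned and 11.9 to 38.3 in suckling piglets. Suckling replicate 1 had the highest sum of the 8. All 4 genes had higher means in weaned piglets, against 42.5% of tested genes with a lower mean. Their median difference was 0.67, and 1.02 without suckling replicate 1. Leaving out the piglet with the highest sum enlarges this difference, so nothing is read from the larger value. The one tested marker of blood cells, the platelet integrin ITGA2B, averaged 0.39 ± 0.19 in weaned and 0.25 ± 0.19 in suckling piglets (SD, n = 4 each).

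How the 6 genes varied together was described over the 8 arrays, with 15 pairs. For F12 with F10 no coefficient is given, because the arrays fell into 2 separate sets, suckling replicates 2, 3 and 4 against the other 5, and neither set holds 6 arrays. Within the 3 high suckling piglets F10 was 0.59, -0.63 and 0.59 where F12 was 3.70, 2.22 and 4.51, so replicate 3 was the lowest of them for both. Of the other 14 pairs none passed adjustment over the 15 (exact two-sided permutation tests, Pearson's r). F8 with PLAT had the smallest p of these, with r = -0.67 (exact p = 0.0692, adjusted p = 0.519) and rho = -0.86 (exact p = 0.0107, adjusted p = 0.161). Without the 2 arrays farthest from the F8 median, weaned replicate 4 and suckling replicate 1, r was -0.84. It was -0.83 within the weaned and -0.93 within the suckling arrays, which have 4 each and are too few for a test. Before scaling, the processed intensities of F8 in suckling replicates 1 to 4 were 1080, 1130, 1160 and 1070. Those of PLAT were 682, 1480, 1520 and 1100, so both genes were highest in suckling replicate 3. The inverse relation within the suckling arrays thus depends on the scaling.

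The genes most like each member were taken as those with the highest Pearson r over the 8 arrays, among 2772 genes with a symbol. For F12 they were KIF21A, ASPA and XKR8, at 0.976, 0.971 and 0.970. For F10 they were CLDN5, FAM8A1 and C8G, at 0.990, 0.974 and 0.972. F12 and F10 split the arrays into the separate sets described above, so a high r with either can rest on that split. These coefficients are therefore not read as a graded relation. KIF21A averaged -0.20 ± 0.34 in weaned and 0.57 ± 0.54 in suckling piglets and was -0.13 in suckling replicate 1. C8G, a complement component, averaged -2.28 ± 0.64 in weaned and -0.87 ± 1.5 in suckling piglets and was -2.87 in suckling replicate 1. CLDN5 is also one of the endothelial markers above.

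For F3 the most like genes were ZNF558, MOBKL3 and DNASE2, at 0.961, 0.925 and 0.917. For F8 they were AVPR2, PIK3AP1 and ANKRD1, at 0.946, 0.929 and 0.918. For PLAT they were TMLHE, MGAT2 and ZNF292, at 0.921, 0.918 and 0.900. For PLAU they were MRPL16, GCHFR and OSTF1, at 0.948, 0.931 and 0.923. These were the highest of 2772 values for each gene, and they describe these 8 arrays only.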

How the data were processed

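Jejunal RNA of 4 weaned and 4 suckling piglets was measured on 1-colour Agilent arrays, 1 piglet per array, labelled with Cy3 per the labels' protocols. Scans were read with Agilent Feature Extraction 10.7, per the submitters' processing notes. The deposited scanner files give intensities per spot, with background already subtracted in the processed signal, and a deposited series-wide table has log2 values. The columns of that table had the order of the processed signals, with medians of 5.50, and a common distribution that no source used here explains.

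Control spots were left out, outlier spots set to missing and spots of a probe averaged, leaving 43603 probes. RefSeq accessions were named through a gene table of Sscrofa11.1, used for names alone; 6924 of 8091 matched. Each array's 75th percentile was subtracted on the log2 scale. Tested probes had to exceed background clearly on 4 or more arrays and to have 3 or more values per group. The comparison of weaned with suckling piglets used limma 3.58.1 (lmFit, eBayes, two-sided; R 4.3.3), with Benjamini-Hochberg adjustment over all tested probes. The fit was tested on simulated data. The number of arrays limits the precision.

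Members, lists, tests and alternatives were chosen with earlier results of these data known. Named were the 6 members, up to 3 genes of each role group with the smallest p, the 2 brightest markers per list and the 3 genes most like each member; 1 gene that this rule takes from the wider list is counted but not reported here. Alternatives were quantile and median scaling, normexp with an offset of 50 on median spot signals, as no mean signals were at hand, other filters, flagged spots kept, a trend with a robust prior, a block for the replicate number, the mean over a gene's probes each array left out and the deposited table in place of the scanner values.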

Additional observations from a re-analysis of the deposited data

Results flagged for a closer look

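Of 58 groups of 4 values checked, for the 6 genes, the named genes of the wider list and the list scores, 3 held a piglet set well away from the rest, and about 2.9 such groups come by chance. Distance was measured as a share of the group's range, from the extreme piglet to its neighbour. No group of the 6 genes was among them. F2 was high in suckling replicate 3 (0.965), at -0.14 against -3.24 to -3.14 in the other 3 suckling piglets. The score of the hepatocyte markers was low in suckling replicate 1 (0.839), and that of the smooth muscle markers was high in suckling replicate 3 (0.871). A list score is the median over its genes of the log2 level minus the gene's mean over the 8 arrays.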

How the results depend on the processing

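F12, F10, F3, PLAT and PLAU kept their direction under every alternative, with adjusted p-values of 0.217 to 0.337 for F12 and 0.264 to 0.400 for F10 over the settings that keep all 8 arrays. Leaving out 1 array at a time gave -4.40 to -2.71 for F12 and -3.40 to -2.07 for F10, with 0 to 2 of the 6 genes past the threshold, 2 only without suckling replicate 1. F8, with a difference near 0, changed sign with normexp (0.065), without suckling replicate 1 (0.14) and without weaned replicate 4 (0.13), and ranged from -0.11 to 0.14 over the arrays left out; the cause was not tested. The median of the wider list lay between -0.01 and 0.17 over all alternatives. The count of 54 probes past the threshold, 53 of them higher in weaned piglets, lay between 9 (without weaned replicate 4) and 553 (without suckling replicate 1) with 1 array left out, and was 77 with 67 higher under normexp. It was 0 with the replicate number as a block (limma; 4194 probes at an unadjusted p under 0.05). With that block F12 and F10 kept differences of -3.39 and -2.51 (limma adjusted p = 0.229 and 0.296). Same-numbered piglets had deviations that correlated across probes at 0.368, 0.008, 0.186 and -0.018 for numbers 1 to 4, so the numbers were not taken to pair them. Weaned replicates 2, 3 and 4 correlated better with a suckling piglet of another number. Of 15 pairs, 1 passed by Pearson's r, F12 with F10, whose arrays fell into separate sets, so nothing is read from that pass. By Spearman rank correlation 0 passed, and 2 had an unadjusted p under 0.05. List medians moved by more than the spread between replicates in 4 cases: hepatocytes without weaned replicate 3 (0.01) and with the mean over all probes (0.02), endothelium with that mean (-0.12) and blood cells with no filter (0.61). Leaving LYZ or VWF out of its list's sum, and naming APOC3 and SLC15A1, were chosen after seeing the data.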

Other observations

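The level of PLAU relative to PLAT within each array was looked at after their values were seen, so no test is given. The log2 difference between the brightest probes was 2.55, 1.79, 2.03 and 1.41 in weaned replicates 1 to 4, against 1.38, 1.33, 0.81 and 1.30 in suckling replicates 1 to 4. Every weaned piglet lay above every suckling piglet. This held for 2 of the 12 combinations of a PLAU with a PLAT probe, for 1 of 12 after quantile normalisation and for 0 of 12 after normexp, so the separation depends on the probes and on the processing.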
